A study of Homo sapiens with 4 samples.

Results

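The genes described here are the matrix metalloproteinases (MMP), the ADAM and ADAMTS proteases with the related ADAMTSL genes, and the tissue inhibitors of metalloproteinases (TIMP) in U87 glioblastoma cells given the small molecule YZ129. They were chosen by gene symbol and by a mean level of at least 10 normalized counts in the authors' deposited table. Of 73 rows with such a name, 48 met the minimum and 25 did not, out of 19749 rows in all. The 48 comprised 15 MMP, 4 TIMP, 14 ADAM, 13 ADAMTS and 2 ADAMTSL genes. The member just inside the minimum was MMP11, at a mean level of 11.99, and the row just outside it was the pseudogene ADAM20P1, at 9.04, in the authors' deposited table. U87 is a long-established human glioblastoma line. Cells received 5 µM YZ129 or the solvent DMSO, both for 24 h, and poly(A) RNA of 2 libraries per group was sequenced. By the series title the study concerns inhibitors of a pathway of HSP90, calcineurin and NFAT, and the comparison asked which transcripts differ between treated and control cells.

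MMPs are zinc-dependent enzymes that cut collagens, laminins, proteoglycans and many secreted proteins, and TIMPs block them by binding the catalytic site. ADAMs are membrane proteins, some of which cut growth factors, receptors and adhesion molecules loose from the cell surface, while ADAMTS enzymes are secreted and act on proteoglycans, procollagens and other matrix proteins. In glioblastoma these families are studied for their part in invasion through brain tissue, where the matrix is rich in proteoglycans and hyaluronan.

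The deposited values are the authors' own comparison, with 1 mean level, 1 log2 fold change and 1 standard error (SE) per gene and no value per library. Values are therefore given below as log2 fold change ± SE, and the overlap of single libraries cannot be shown. Positive values were read as higher with YZ129. The table does not state this, and DMSO comes first in the comparison's name. The reading rests on heat shock genes, which loss of HSP90 function is known to induce: HSPA6 (2.64 ± 0.23), BAG3 (0.99 ± 0.14) and HSPA1B (0.80 ± 0.15) were positive in the authors' deposited table. The HSP90 genes themselves, HSP90AA1 (-0.04 ± 0.14) and HSP90AB1 (0.05 ± 0.15), missed the threshold in the authors' deposited table and lay near 0. They lend the reading no support, and it rests on HSPA6, BAG3 and HSPA1B alone. If the fold changes were DMSO over YZ129, all directions below would be the reverse. The mean level averages 8 sets of counts, 4 more than the libraries that the labels describe, so it is not the level of either group. Whether these sets are further libraries or separate runs of the described ones is not known. Whether all 8 sets entered the authors' estimate of the spread is not known either, and with it what the SEs, intervals and adjusted p-values rest on. Among astroglial markers VIM (298885) and SLC1A3 (1891) lay above the median level of all tested genes (993), and NES (909) below it. GFAP (52.2), FABP7 (15.5), S100B (1.12) and SOX2 (0.851) had low mean levels in the authors' deposited table. Of 6 tested astroglial markers 3 fell with YZ129, VIM (-0.46 ± 0.13), SLC1A3 (-1.03 ± 0.15) and NES (-0.59 ± 0.15), and 0 rose in the authors' deposited table. OLIG2, at a mean level of 96.2, went the other way without passing (0.82 ± 0.33, adjusted p = 0.079) in the authors' deposited table. Their part in the results below was not tested, and in such bulk RNA fewer expressing cells and less RNA per cell cannot be told apart. Markers of leukocytes, endothelium and epithelium lay between 0.344 and 449 in the authors' deposited table, and 0 of the 2, 3 and 1 tested genes of these lists passed an adjusted p of 0.05 (1 leukocyte gene, CSF1R, had an unadjusted p under 0.05).

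With YZ129, 8 of the 48 genes rose and 3 fell at an adjusted p of 0.05 in the authors' deposited table (Wald test, Benjamini-Hochberg adjustment over all tested genes), and 37 did not pass. The 8 that rose were MMP1, MMP3, MMP19, ADAMTS1, ADAMTS6, ADAMTS9, ADAMTS14 and ADAMTS16, by 1.46-fold to 2.40-fold. The 3 that fell were TIMP3, ADAM8 and ADAMTSL1, by 1.68-fold to 1.98-fold. Rises made up 16.7% of the members against 5.24% of the 14812 genes tested, and falls 6.25% against 7.64%. In either direction 22.9% of the members passed against 12.9% of all tested genes. Among members with a mean level of at least 1000 the share was 33.3% (6 of 18) against 13.9%, and below that level 16.7% (5 of 30) against 12%. The difference between these shares was not tested, since the members were chosen with results of these data known. Rises were 72.7% of the member calls and 40.7% of all calls, and after centring on the median of all tested genes these shares were 72.7% and 51.9%. At an unadjusted p under 0.05 (Wald test), 12 members were positive and 9 negative. Of the 14812 genes tested, 1549 and 2145 were so, and this difference was not tested either.

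**Figure D1:**
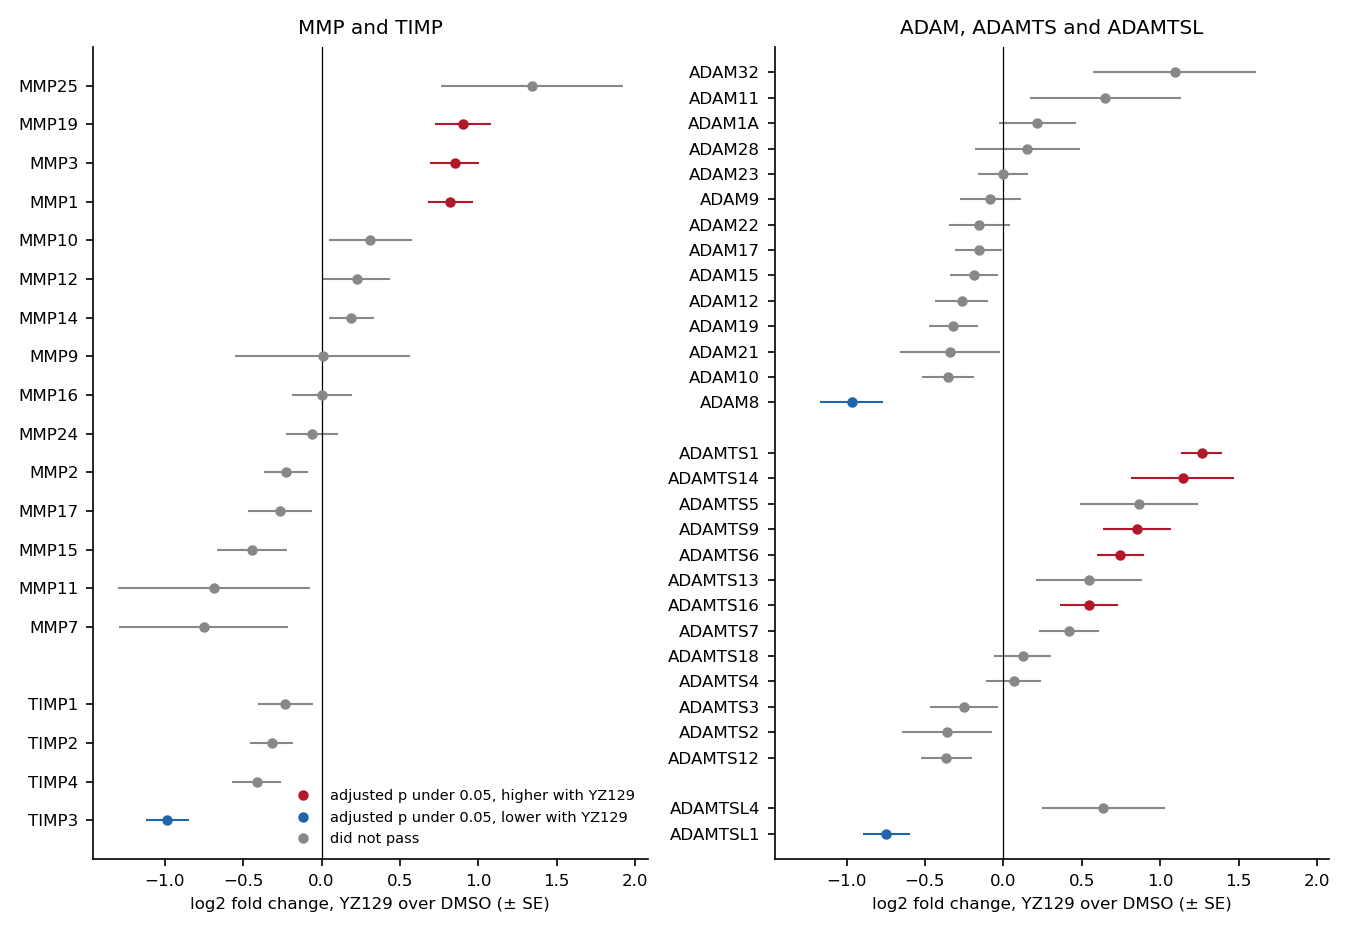
Log2 fold change of each of the 48 genes (x axis, YZ129 over DMSO, bars are ± 1 SE), grouped by family and ordered by value, with red for genes that rose, blue for genes that fell and grey for genes that did not pass. The 3 MMP rises lie between 0.82 and 0.90, and 5 of 13 ADAMTS genes rose while none fell. All 4 TIMPs, with mean levels of at least 1000, lie below 0, as do 67% of all tested genes of that level.

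Values of the 48 genes were spread evenly about 0. The median log2 fold change of the members was 0.00 against -0.05 for all tested genes, and 24 of 48 values were negative (50%, against 56% of all tested genes). Of the 11 genes that passed, ADAMTS1 and ADAMTS14 were the 2 with a log2 change of at least 1. At mean levels of at least 1000, 12 of 18 members were negative (66.7%), which is close to the 67% among all tested genes of that level.

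**Figure D2:**
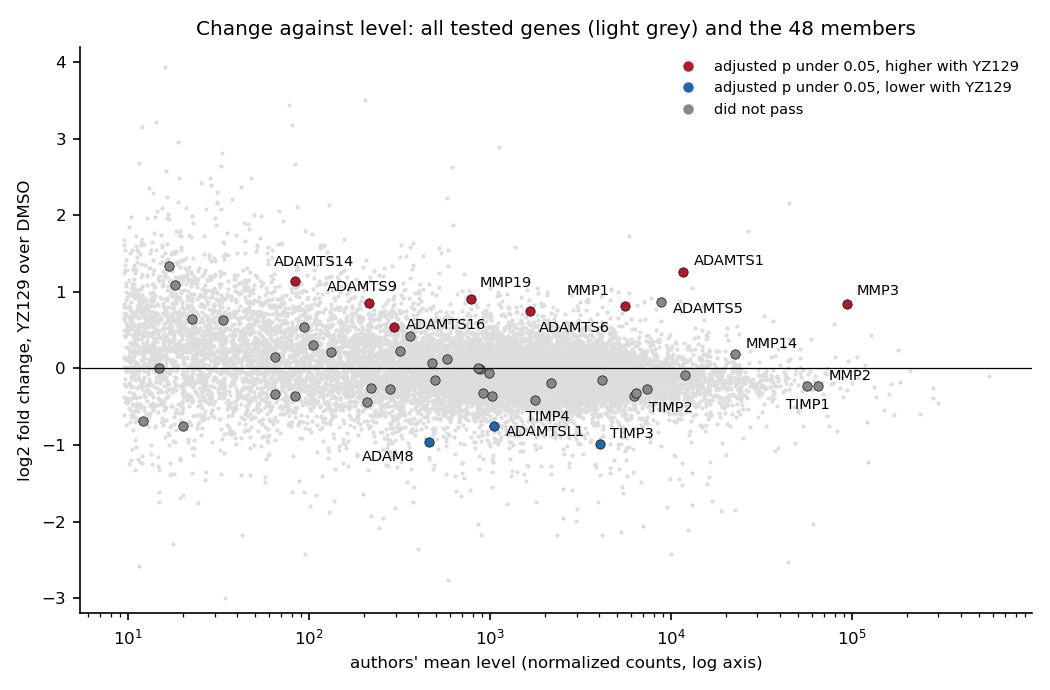
Log2 fold change (y axis) against the authors' mean level in normalized counts (log x axis) for all tested genes in light grey and for the 48 members in colour. MMP3 and ADAMTS1 stand above most genes of similar level and TIMP3 below them, while MMP2, MMP14, TIMP1 and TIMP2 lie within 0.4 of 0.

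Among the secreted MMPs, a collagenase and a stromelysin rose together. MMP1, the interstitial collagenase that opens the triple helix of fibrillar collagens, had a mean level of 5528 normalized counts and rose 1.77-fold (0.82 ± 0.14, adjusted p = 5.53e-07) in the authors' deposited table. MMP3, or stromelysin-1, which cuts a broad range of matrix proteins and activates other pro-MMPs including pro-MMP1, rose 1.80-fold (0.85 ± 0.15, adjusted p = 2.1e-06) in the authors' deposited table. MMP19, a widely expressed MMP that acts on basement membrane proteins, rose 1.87-fold (0.90 ± 0.18, adjusted p = 1.88e-05) in the authors' deposited table. These 3 estimates differ by less than their SEs, and differences between them were not tested.

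MMP1 and MMP3 are neighbours in a cluster of MMP genes on chromosome 11, and the genes beside them did not pass. In RefSeq the order of protein-coding genes there is MMP7, MMP20, MMP27, MMP8, MMP10, MMP1, MMP3, MMP12 and MMP13. The flanking stromelysin-2 gene MMP10 stood at 0.31 ± 0.26 (adjusted p = 0.50) and the macrophage elastase gene MMP12 at 0.22 ± 0.21 (adjusted p = 0.56) in the authors' deposited table. The 95% interval of MMP10 (-0.204 to 0.826) holds the estimate of MMP1 (0.821), and that of MMP12 ends at 0.643. Differences between these neighbours were not tested. MMP7, or matrilysin, at the far end of the cluster, had -0.75 ± 0.54 with a mean level of only 19.99 in the authors' deposited table. MMP8, MMP13 and MMP20 were under the minimum and had no adjusted p, with mean levels of 6.10, 0.716 and 0.894 in the authors' deposited table. In GENCODE 29, MMP1 shares 150 exonic bases (7.61%) with WTAPP1, a pseudogene on the other strand, which had 0.88 ± 0.37 (adjusted p = 0.10) in the authors' deposited table. Strand use in counting was not given in the sources used here, so reads of the 2 genes may be mixed.

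The gelatinases did not pass, and their precision differed widely. MMP2, or gelatinase A, stood at -0.23 ± 0.14 (95% interval -0.51 to 0.05, adjusted p = 0.31) with a mean level of 65169 in the authors' deposited table, so a change of 2-fold lies outside its interval. MMP9, or gelatinase B, had a mean level of 14.7 and a value of 0.01 ± 0.56 in the authors' deposited table, and its interval of -1.09 to 1.10 holds 2-fold changes either way.

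None of the 6 membrane-anchored MMPs passed (2 had an unadjusted p under 0.05, MMP25 and MMP15, 1 in each direction). Of all tested genes 12.9% passed, and a group of 6 is too small to be set apart from that share. MMP14, which sits in the plasma membrane and activates pro-MMP2, had 0.19 ± 0.14 with a mean level of 22484 (adjusted p = 0.44) in the authors' deposited table. MMP24 (-0.06 ± 0.17) and MMP16 (0.00 ± 0.19) lay close to 0 in the authors' deposited table. The GPI-anchored MMP25 had the largest positive estimate of all 48 genes, 1.34 ± 0.58 (adjusted p = 0.11), at a mean level of 16.7 in the authors' deposited table, and is named after its value was seen. MMP25 shares 19.7% of its exonic bases with an antisense gene in GENCODE 29.

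Scaled by the length of the longest coding transcript in GENCODE 29, MMP3 had the highest level of the MMP family, at 46313 normalized counts per kb. It made up 62.9% of the summed level per kb of the 15 MMP genes, followed by MMP2 (23.7%), MMP14 (8.18%) and MMP1 (3.81%). MMP19, the other gene that rose, made up 0.479%. Among the inhibitors TIMP1 made up 93.3% of the summed level per kb, and TIMP3 had the lowest of the 4 levels, at 874 per kb. Neither the deposited levels nor their order have an error, since no value per library is given, and these levels cover 8 sets of counts.

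**Figure D3:**
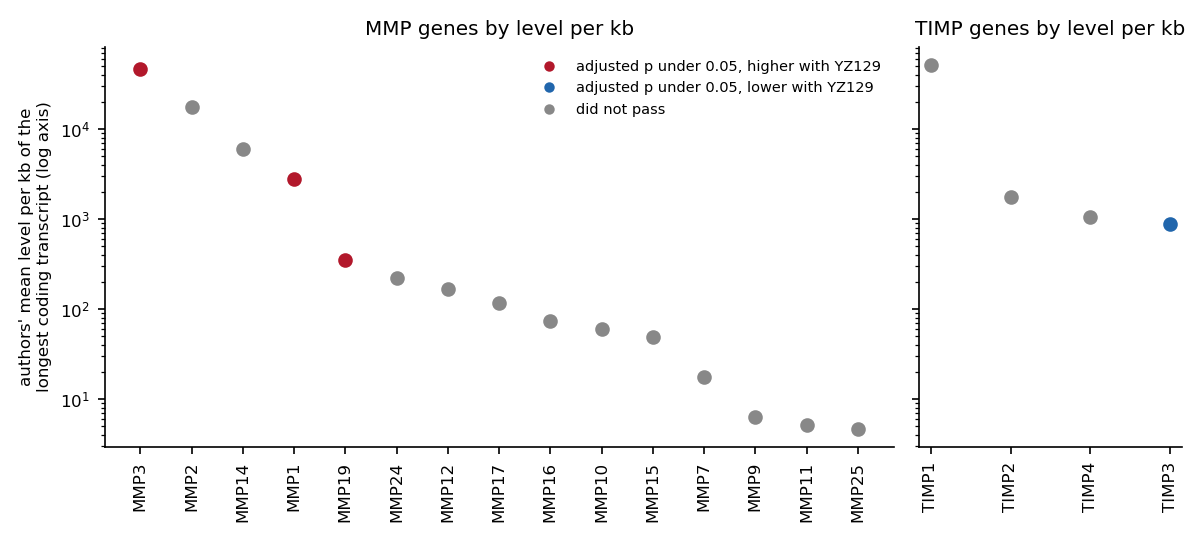
Authors' mean level divided by the length of the longest coding transcript in kb (log y axis) for the 15 MMP genes and the 4 TIMP genes, ordered by level, with colours for genes that rose (red), fell (blue) or did not pass (grey). MMP3 leads the MMPs at 46313 per kb and TIMP1 the TIMPs at 51239 per kb, and TIMP3, the 1 inhibitor that fell, is the lowest of the 4 at 874 per kb.

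TIMP3 fell, and the other inhibitors were negative without passing. All 4 had mean levels of at least 1000, where 67% of all tested genes were negative. TIMP3, which binds to the matrix and blocks ADAM and ADAMTS enzymes as well as MMPs, was 1.98-fold lower (-0.99 ± 0.14, adjusted p = 7.22e-11) at a mean level of 4023 in the authors' deposited table. TIMP4 had -0.41 ± 0.16 (adjusted p = 0.058) at a mean level of 1759 in the authors' deposited table. TIMP2, which besides inhibiting MMPs helps MMP14 to activate pro-MMP2, had -0.32 ± 0.14 (adjusted p = 0.11) in the authors' deposited table. The most abundant inhibitor, TIMP1, had -0.23 ± 0.17 (95% interval -0.57 to 0.11, adjusted p = 0.44) in the authors' deposited table. The intervals of TIMP1, TIMP2 and TIMP4 lie wholly between -1 and 1. Centred on the median of their decile of mean level, TIMP1 stood at -0.08, TIMP2 at -0.16, TIMP4 at -0.31 and TIMP3 at -0.87. After this centring TIMP3 still passed (adjusted p = 1.91e-08, Wald test), and TIMP4 had an adjusted p of 0.22.

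TIMP1, TIMP3 and TIMP4 each lie within a synapsin gene, SYN1, SYN3 and SYN2. No exonic bases are shared between these pairs in GENCODE 29. SYN3 (-1.12 ± 0.69) had no adjusted value in the authors' deposited table, and its mean level was 7.88, against 4023 for TIMP3. Neither SYN2 (-0.46 ± 0.27) nor SYN1 (-0.01 ± 0.37) passed in the authors' deposited table.

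ADAMTS proteases held the largest number of rises. Of 13 genes 5 rose, 0 fell and 8 missed the threshold in the authors' deposited table, whose columns are those of DESeq2, with 7 positive and 1 negative at an unadjusted p under 0.05. Among all 14812 tested genes 5.24% rose and 7.64% fell, and 1549 were positive and 2145 negative at that unadjusted p. The median of the family was 0.55, against -0.05 for all tested genes. Among the proteoglycan-cleaving members, which cut versican, brevican and aggrecan, ADAMTS1 rose 2.40-fold (1.26 ± 0.13, adjusted p = 7.86e-20) at a mean level of 11691 in the authors' deposited table. This was the smallest adjusted p of the 48 genes. ADAMTS9 rose 1.80-fold (0.85 ± 0.21, adjusted p = 0.0015) at a mean level of 213 in the authors' deposited table, and ADAMTS4 had 0.07 ± 0.18.

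ADAMTS5, the aggrecanase gene next to ADAMTS1 on chromosome 21, did not pass although its estimate was large. It stood at 0.87 ± 0.38 (95% interval 0.13 to 1.603, adjusted p = 0.11) at a mean level of 8773 in the authors' deposited table. Its SE was larger than those of 97.3% of the genes in the same decile of mean level, whose median SE was 0.15, while 1.957% of them had a smaller SE than ADAMTS1. Which libraries differed cannot be read from the deposited values.

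**Figure D4:**
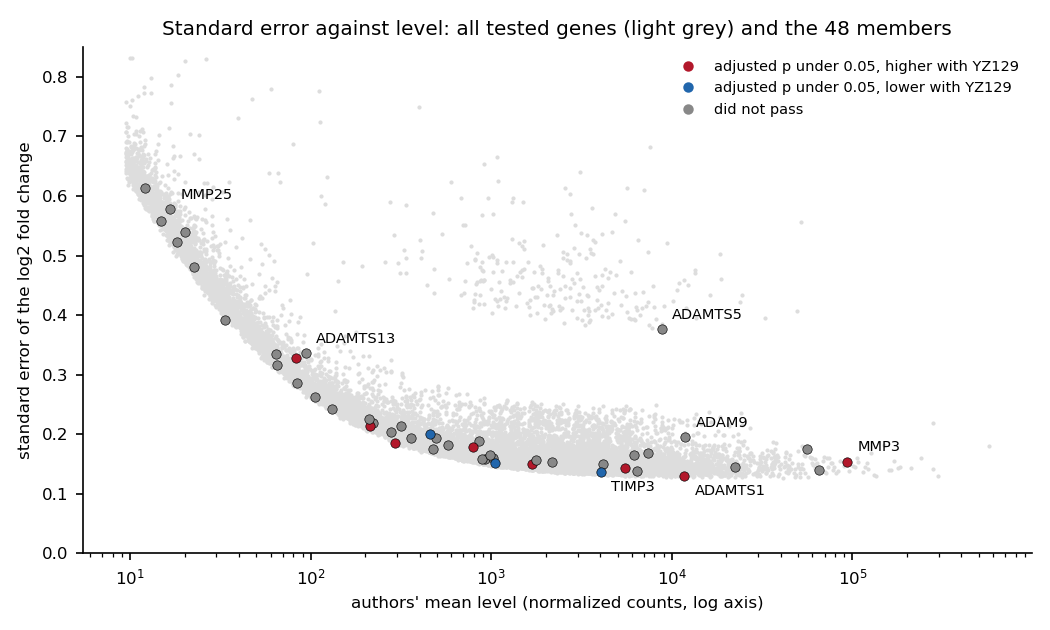
Standard error of the log2 fold change (y axis) against the authors' mean level in normalized counts (log x axis) for all tested genes in light grey and the 48 members in colour. The SE falls from about 0.6 at the lowest levels to below 0.2, and ADAMTS5, at 0.38, lies apart from the other members of high level.

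The remaining ADAMTS rises came from other branches of the family. ADAMTS6, which acts on fibrillin-rich matrix, rose 1.68-fold (0.74 ± 0.15, adjusted p = 2.37e-05) at a mean level of 1670 in the authors' deposited table. ADAMTS14, a procollagen N-propeptidase, rose 2.21-fold (1.14 ± 0.33, adjusted p = 0.0069) at a mean level of 83.0 in the authors' deposited table. Under a mean level of 100, 2072 of 3086 tested genes were positive, and 168 rose against 31 that fell. Centred on genes of the same level, ADAMTS14 stood at 0.97 (adjusted p = 0.031, Wald test). In the authors' deposited table its relatives ADAMTS2 (-0.36 ± 0.29) and ADAMTS3 (-0.25 ± 0.22) were negative without passing. ADAMTS16 rose 1.46-fold (0.55 ± 0.19, adjusted p = 0.031) in the authors' deposited table, but not at the stricter adjusted p of 0.01.

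Neither member that cleaves cartilage oligomeric matrix protein passed, with 0.42 ± 0.19 for ADAMTS7 and -0.36 ± 0.16 for ADAMTS12 in the authors' deposited table (unadjusted p under 0.05 for both, in opposite directions). ADAMTS18 had 0.12 ± 0.18, and ADAMTS13, the protease of von Willebrand factor, 0.55 ± 0.34 in the authors' deposited table. Genes of the ADAMTSL type encode matrix proteins without a protease domain. Of these ADAMTSL1 was 1.68-fold lower (-0.75 ± 0.15, adjusted p = 2.95e-05) and ADAMTSL4 (0.64 ± 0.39) missed the threshold in the authors' deposited table.

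Among the ADAM genes 1 of 14 fell, 0 rose and 13 missed the threshold in the authors' deposited table with DESeq2 columns, with 1 positive and 3 negative at an unadjusted p under 0.05. Among all 14812 tested genes 7.64% fell and 5.24% rose, and 1549 were positive and 2145 negative at that unadjusted p. The ADAM counts were not tested against these. ADAM8, a sheddase best known from leukocytes and from invasive tumours, was 1.95-fold lower (-0.97 ± 0.20, adjusted p = 5.05e-05) at a mean level of 457 in the authors' deposited table. The main general sheddases did not pass. ADAM10, which cuts Notch receptors, APP and N-cadherin, had -0.35 ± 0.17 (adjusted p = 0.15), and ADAM17, which releases TNF and ligands of the EGF receptor, had -0.16 ± 0.15 (adjusted p = 0.57) in the authors' deposited table. ADAM17 shares 28.5% of its exonic bases with IAH1 on the other strand in GENCODE 29, and IAH1 had -0.23 ± 0.15 in the authors' deposited table.

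ADAM9 (-0.08 ± 0.20), ADAM12 (-0.27 ± 0.17) and ADAM15 (-0.19 ± 0.15), all proteolytic members with mean levels of at least 1000, missed the threshold in the authors' deposited table. The sign of ADAM9 turned, to 0.0743, when values were centred on genes of the same level. ADAM19 had -0.32 ± 0.16, and ADAM23, an adhesion protein of neurons without protease activity, had 0.00 ± 0.16 in the authors' deposited table. All exonic bases of ADAM1A lie within the gene MAPKAPK5 on the same strand in GENCODE 29, so its value of 0.22 ± 0.24 in the authors' deposited table may hold reads of that gene. No coding transcript was found in GENCODE 29 under the name ADAM1A, whereas 47 of the 48 members had one. ADAM1A and 5 other ADAM genes with mean levels between 18.1 and 493 (ADAM11, ADAM21, ADAM22, ADAM28 and ADAM32) ranged from -0.34 to 1.09 in the authors' deposited table, and 0 of these 6 passed there with DESeq2 columns. ADAM32 had the 1 unadjusted p under 0.05 among them.

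For most members that did not pass, changes beyond 2-fold lay outside the interval. Of 37 such genes 28 had a 95% interval wholly between -1 and 1. This held for 11 of the 12 with a mean level of at least 1000, the exception being ADAMTS5, whereas 8 of the 11 with a mean level under 100 had an interval that reached past -1 or 1. The median SE of the members was 0.15 at mean levels of at least 1000 and 0.44 under 100.

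Promoter sequences from RefSeq (GRCh38.p14) were found for 28 of the 48 genes, 5 of them among the 11 that passed. Of the 8 genes that rose, 2 had a sequence (ADAMTS6 and ADAMTS14). MMP1, MMP3, MMP19, ADAMTS1, ADAMTS9 and ADAMTS16 had none and were not searched. The 250 bases before the start site were searched on both strands for an AP-1 site (TGANTCA), the core of a hypoxia response element (ACGTG), a heat shock element (GAANNTTC) and an NFAT site (TGGAAA). AP-1 is a known activator of MMP genes, and the series title or the heat shock reading bring in the heat shock and NFAT sites. The hypoxia core was searched in addition. TIMP3 is shown as the inhibitor that fell, ADAMTS6 as a gene that rose, and MMP10 as the neighbour of MMP1 in the chromosome 11 cluster. Each runs 5′ to 3′ on the gene's strand and ends at the base before the start site, with matches in capitals. The windows are chr22:32801455-32801704 (plus strand), chr5:65481921-65482170 (minus strand) and chr11:102780629-102780878 (minus strand).
TIMP3: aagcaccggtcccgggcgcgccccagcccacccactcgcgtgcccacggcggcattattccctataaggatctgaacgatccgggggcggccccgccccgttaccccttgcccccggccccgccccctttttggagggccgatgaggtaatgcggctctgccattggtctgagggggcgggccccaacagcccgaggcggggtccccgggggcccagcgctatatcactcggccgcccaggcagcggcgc
ADAMTS6: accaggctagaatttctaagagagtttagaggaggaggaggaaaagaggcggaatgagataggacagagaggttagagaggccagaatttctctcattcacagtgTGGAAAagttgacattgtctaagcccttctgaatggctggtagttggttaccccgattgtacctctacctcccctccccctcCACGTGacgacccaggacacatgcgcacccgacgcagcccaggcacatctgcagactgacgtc
MMP10: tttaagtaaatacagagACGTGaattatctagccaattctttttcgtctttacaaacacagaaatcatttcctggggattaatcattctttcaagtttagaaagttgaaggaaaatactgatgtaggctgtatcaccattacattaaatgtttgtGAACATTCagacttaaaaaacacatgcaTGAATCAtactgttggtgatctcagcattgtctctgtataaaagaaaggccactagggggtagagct

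The TIMP3 window held no match to the 4 motifs and was 72.4% G and C, whereas the MMP10 window was 34.4% G and C. In the MMP10 window an AP-1 match began 67 bases before the start, a heat shock match 95 bases and a hypoxia match 233 bases before it. In the ADAMTS6 window the hypoxia core was read on both strands of 1 overlapping site that began 63 bases before the start, and an NFAT match began 145 bases before it. AP-1 matches occurred in 3 of the 28 member windows (MMP7, MMP10 and ADAMTS12, none of which passed) and in 6.6% of 27305 promoters of the same length. The MMP genes that rose had no window, so these matches say nothing about their promoters. Hypoxia cores occurred in 8 of 28 against 18.7%, heat shock matches in 3 of 28 against 5.85% and NFAT matches in 2 of 28 against 18.3%. The windows also differed in base composition, with a median of 73.4% G and C among the 28 against 58% among all promoters, so these shares are not matched for it. None of the 3 windows of genes that fell held any of the 4 motifs. A match describes letters in the window and not a bound site.

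Genes that switch the proteases on, carry them or restrain them changed in 4 cases. Of 15 tested genes of this list 1 rose and 3 fell, with a median of -0.21. Among all tested genes 5.24% rose and 7.64% fell, falls outnumbered rises by 1132 to 776, and the median was -0.05. At an unadjusted p under 0.05, 1549 of the 14812 tested genes were positive and 2145 negative. The counts of this list and the next 3 were not tested against these. PCSK6, a furin-like convertase that can activate pro-proteases, rose at a mean level of only 13.8 (2.29 ± 0.61, adjusted p = 0.0032), and its relative PCSK5 fell (-0.55 ± 0.17, adjusted p = 0.015) in the authors' deposited table. RHBDF1, an iRhom that brings ADAM17 to the cell surface, fell (-0.53 ± 0.17, adjusted p = 0.020), as did TSPAN5, a tetraspanin partner of ADAM10 (-0.38 ± 0.14, adjusted p = 0.049), in the authors' deposited table. At an adjusted p of 0.01 the falls of this list numbered 0.

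Of 25 tested genes for cell-surface substrates of the ADAMs, 1 rose and 6 fell, or 3 fell at an adjusted p of 0.01, with a median of -0.01. At an unadjusted p under 0.05 the list had 5 positive and 8 negative genes. TGFA, a ligand of the EGF receptor that ADAM17 releases, fell (-0.90 ± 0.14, adjusted p = 3.85e-09), and the interleukin-6 receptor gene IL6R, another ADAM17 substrate, rose (0.94 ± 0.16, adjusted p = 1.35e-07) in the authors' deposited table. The TNF receptor gene TNFRSF1B (-0.66 ± 0.15) and NOTCH3 (-0.86 ± 0.20) fell in the authors' deposited table. NOTCH1 (0.47 ± 0.18, adjusted p = 0.063) and NOTCH2 (0.37 ± 0.16, adjusted p = 0.11) were positive there without passing.

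Among matrix substrates 4 of 16 tested genes fell and 0 rose in the authors' deposited table with DESeq2 columns, with 1 positive and 4 negative at an unadjusted p under 0.05. COL1A1, a chain of the collagen that MMP1 cuts and the ADAMTS2 group processes, fell (-1.15 ± 0.15, adjusted p = 1.4e-12) in the authors' deposited table. The other chain of that collagen, COL1A2, did not pass (-0.25 ± 0.13, adjusted p = 0.22). The collagen gene COL3A1 was positive without passing (1.21 ± 0.57, adjusted p = 0.15) at a mean level of 14.9. The microfibril gene FBN1 (-0.74 ± 0.16), SPARC (-0.58 ± 0.13) and the basement membrane gene NID1 (-0.62 ± 0.21) also fell in the authors' deposited table. This list had a median of -0.02.

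Transcription factors known to drive MMP genes went both ways, with 1 rise and 3 falls among 15 and a median of -0.14. FOS fell (-1.40 ± 0.18, adjusted p = 5.86e-13) and FOSB rose (1.10 ± 0.18, adjusted p = 5.01e-08) in the authors' deposited table. FOSL2 (-0.41 ± 0.15) and the ETS factor ETV1 (-0.98 ± 0.21) fell in the authors' deposited table. Whether any of these moves with the proteases across libraries was not tested.

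**Figure D5:**
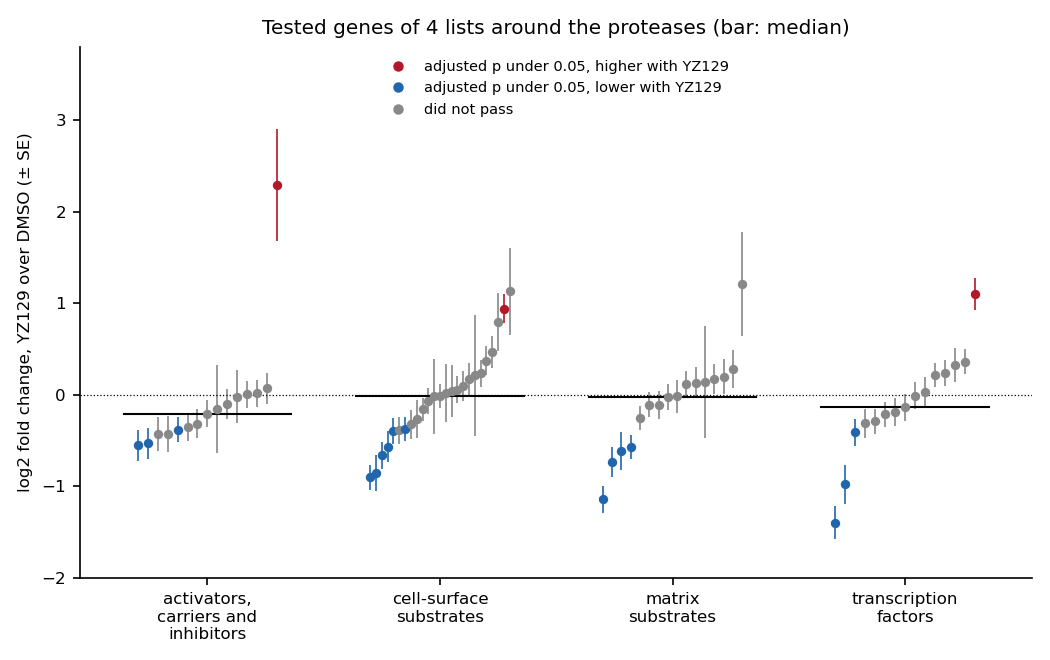
Log2 fold change (y axis, bars are ± 1 SE) of each tested gene in the 4 lists, ordered by value within a list, with red for genes that rose, blue for genes that fell and a black bar at the list's median. Falls and rises number 3 to 1, 6 to 1, 4 to 0 and 3 to 1, against 1132 to 776 among all tested genes, and the list medians lie between -0.21 and -0.01, around the -0.05 of all tested genes.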

How the data were processed

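Poly(A)-selected RNA of U87 cells was sequenced in 2 DMSO and 2 YZ129 libraries. Samples were grouped by title. The labels name no separate cultures, so p-values measure only the spread between libraries or runs, which may be technical. The mean level rests on 8 sets of counts, and whether these are further libraries or separate runs of the described ones is not known. Whether all of them entered the deposited SEs and p-values is not known either. The submitters' processing notes list TopHat2 2.0.12, Cufflinks 2.2.1, Cuffdiff and hg19. The read counter and the annotation were not given in the sources used here.

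The authors deposited 1 table with the column names of DESeq2 per the file headers. Its mean level is a normalized signal, that is counts over size factors, as deposited. The authors' log2 fold changes come with an SE, a score (the Wald statistic), a p-value and an adjusted one. All 19749 scores equalled fold change over SE, and all 14812 adjusted p-values a Benjamini-Hochberg adjustment. The other 4937 genes, with mean levels of 9.43 or less, were left out. Levels of genes with 2 reads took 36 values, all sums of 8 steps, 1 per set of counts (tolerance 1e-07). Fold changes were read as moderated towards 0, since CD3E, at a mean level of 0.426, had an SE of 0.55 in the authors' deposited table, so changes of low genes are understated. Depth per library and intervals on counts cannot be given.

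An adjusted p under 0.05 was the call. Intervals are 95% normal intervals from the SE. Re-adjustment and centring (Python 3.11.15, numpy 2.4.6, scipy 1.17.1) were tested on simulated data. The members, lists and tests were chosen with earlier results of these data known. Genes named were those that passed, all TIMPs, members with a mean level of at least 1000, the genes next to the minimum, up to 2 others per subfamily by level, and up to 4 per list by adjusted p. MMP25, MMP15, genes of shared exons or neighbouring position and 6 low ADAM genes are named outside this rule, after their values were seen. So are COL1A2, COL3A1, NOTCH1 and NOTCH2.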

Additional observations from a re-analysis of the deposited data

How the results depend on the processing

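Requiring a log2 change of at least 1 left 2 genes called higher (ADAMTS1 and ADAMTS14) and 0 called lower, against 8 and 3, because MMP1, MMP3, MMP19, TIMP3, ADAM8, ADAMTSL1, ADAMTS6, ADAMTS9 and ADAMTS16 changed by less. At an adjusted p of 0.01 the counts were 7 and 3, and ADAMTS16 no longer passed. Adjusting over every gene, or centring on the median of all tested genes or of the same decile of mean level, gave 8 and 3. Centred by decile, ADAMTS14 (0.97) lay under a log2 change of 1, and MMP3 (1.005) above it. A minimum mean level of 100 gave 7 and 3, and no minimum 8 and 3. Of the 23 genes tested for this (those that passed, the TIMPs and members with a mean level of at least 1000), 1 changed sign: ADAM9, to 0.0743 after centring by decile. The median of the members ranged from -0.07 to 0.05. Among all tested genes 40.7% of calls were higher, against 51.9% after centring on the overall median and 53.4% by decile. No paired analysis was possible because the deposited table has no values per library, and fits without each replicate were not run for the same reason.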

Other observations

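The SE of ADAMTS5 lies above a gap in the SEs of genes of high level. Of the 7377 genes tested whose mean level was 1000 or more, 197 (2.67%) had an SE above 0.3, a limit chosen after the values were seen, where the median was 0.16. The largest SE below this limit was 0.257 and the smallest above it was 0.376, that of ADAMTS5 itself. In the authors' deposited table with DESeq2 columns 0 of these 197 passed an adjusted p of 0.05, and ADAMTS5 was the 1 member among them. A wide SE by itself lowers the Wald statistic.

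The antisense RNA ADAMTS9-AS2, left out by its hyphenated name and named after its value was seen, fell (-1.61 ± 0.59, adjusted p = 0.049) at a mean level of 14.8 in the authors' deposited table, while ADAMTS9 rose. How counting treated strand was not given in the sources used here.

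Beyond the 11 genes that passed, 10 members had an unadjusted p under 0.05, of which 4 were positive and 6 negative. TIMP4 came closest to the threshold, with an adjusted p of 0.058 in the authors' deposited table.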
